A study of Mus musculus with 42 samples.

Results

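The genes described here are 42 genes of fibroblasts and of the extracellular matrix, followed in MC38 tumors grown in mice and treated with blocking antibodies. They were taken from a table of read counts by a fixed list of symbols, and all 42 were present among its 26811 gene identifiers. The list holds 5 fibrillar collagen chains (Col1a1, Col1a2, Col3a1, Col5a1, Col5a2), 4 other collagen chains (Col6a1, Col6a2, Col6a3, Col12a1), 8 glycoproteins and fiber proteins (Fn1, Fbn1, Mfap5, Sparc, Postn, Tnc, Thbs1, Thbs2), and 5 proteoglycans (Dcn, Lum, Bgn, Ogn, Vcan). It also holds 4 genes of collagen processing and cross-linking (Lox, Loxl1, Loxl2, Pcolce), 8 of matrix turnover (Mmp2, Mmp14, Timp1, Timp2, Timp3, Ctsk, Fap, Mrc2), 4 surface receptors (Pdgfra, Pdgfrb, Thy1, Epha3), 2 contractile genes (Acta2, Tagln) and 2 further secreted proteins (Apod, Serpinf1).

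The study asked whether blocking GM-CSF, a growth factor of myeloid cells, or IL2RB, the receptor chain shared by the interleukins that sustain NK and CD8+ T cells, changes how tumors respond to an antibody against PD-1 (aPD1). MC38 is a mouse colon carcinoma cell line, and CC75xB6 mice are the F1 offspring of the recombinant inbred strain CC075/UncJ and C57BL/6J, so that a single host genotype and a single tumor line were studied. Each of the 42 samples was poly(A) RNA of a whole tumor, raised under the skin of a female mouse aged 8 to 12 weeks, and the tumors of a group were labelled as biological replicates. The groups were isotype control (n = 5), aPD1 (n = 6), aPD1 + aGMCSF (n = 9), aPD1 + aIL2RB (n = 11) and aPD1 + aGMCSF + aIL2RB (n = 11). Blocking of GM-CSF used 100 μg of aGMCSF and blocking of IL2RB used 200 μg of aIL2RB, repeated every 3 days from engraftment until the tumor measured 75 to 110 mm3. Animals outside a blocking arm received isotype antibodies of matching dose over that time. An injection then followed, of 200 μg aPD1 or, in the isotype control group, of the antibody matched to it, and tumors were taken 48 hours later. The antibodies reached the whole animal, and a whole tumor contains cancer cells, fibroblasts, vessels and leukocytes together.

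Fibroblasts are the main builders of the matrix between cells. They secrete collagens, which assemble into fibrils or, for type VI, into beaded networks, together with glycoproteins such as fibronectin and small proteoglycans such as decorin that bind the fibrils. Lysyl oxidases cross-link collagen, metalloproteinases and their inhibitors set its turnover, and PDGF receptors mark many fibroblasts. Some fibroblasts in wounds and tumors acquire contractile proteins of smooth muscle and are then called myofibroblasts, a state that transforming growth factor beta is known to promote.

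Some members were higher in aPD1 tumors than after IL2RB blockade and others lower. The promoters of 3 genes that changed between these groups are shown, Acta2 from the former kind and Col3a1 and Epha3 from the latter. RefSeq promoter sequences of build GRCm38.p6 were matched to 25 of the 42 members by symbol. The 250 bases before the transcription start are printed 5′ to 3′ on the coding strand, at chr19:34255374-34255623 (minus strand) for Acta2, chr1:45311288-45311537 (plus strand) for Col3a1 and chr16:63864176-63864425 (minus strand) for Epha3. The RefSeq start of Acta2 lies 217 bases from the 5′ end of the gene in the GENCODE annotation, and those of Col3a1 and Epha3 coincide with it. Capitals mark where the letters CAGAC, and in Col3a1 also TATAAA, occur on either strand of the window.
Acta2: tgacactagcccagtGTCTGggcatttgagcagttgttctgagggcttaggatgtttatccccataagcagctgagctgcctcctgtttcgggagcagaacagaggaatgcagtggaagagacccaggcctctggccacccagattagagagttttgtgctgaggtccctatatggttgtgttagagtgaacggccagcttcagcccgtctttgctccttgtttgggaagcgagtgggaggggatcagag
Col3a1: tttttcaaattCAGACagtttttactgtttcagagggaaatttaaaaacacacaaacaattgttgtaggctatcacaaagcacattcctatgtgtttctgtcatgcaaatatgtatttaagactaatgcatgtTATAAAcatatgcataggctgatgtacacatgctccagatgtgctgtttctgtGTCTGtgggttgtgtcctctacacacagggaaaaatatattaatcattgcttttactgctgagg
Epha3: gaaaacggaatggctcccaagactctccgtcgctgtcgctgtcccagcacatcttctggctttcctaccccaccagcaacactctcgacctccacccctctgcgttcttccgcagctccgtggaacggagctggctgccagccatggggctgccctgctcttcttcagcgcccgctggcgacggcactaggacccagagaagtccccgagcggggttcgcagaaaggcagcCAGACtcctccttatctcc

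The 5 motifs were searched on both strands of the 250 bases, and none of them overlapped another in the sequences shown. CAGAC, the core letters bound by SMAD proteins of the transforming growth factor beta pathway, was present in 12 of 25 member promoters and in 42.2% of 32851 promoters of this length. It was found once in the Acta2 window, on 2 occasions in that of Col3a1 and once in that of Epha3. The TATA box letters TATAAA were present in 5 member promoters (Col3a1, Ogn, Postn, Thbs2 and Tnc) against 12.4% of all promoters. CCAAT was present in 7 against 33.8%, and TGANTCA, the letters bound by AP-1, in 1 (Col6a1) against 6.75%. The CArG box, searched only as CCWWWWWWGG with W for A or T, was in none of the 25 windows against 1.47% of all promoters. Letters that depart from this pattern were not counted. The Acta2 window holds ccctatatgg and ccttgtttgg, each of which departs from it at a single base. A match is a description of letters in these windows only.

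Total counts per tumor ranged from 7155464 to 24101643, and aside from the lowest, aPD1 + aGMCSF + aIL2RB replicate 4, no tumor was under 15109184. The 42 genes took a median of 1.06% of the counts in isotype control tumors, 1.1% in aPD1, 1.33% in aPD1 + aGMCSF, 1.61% in aPD1 + aIL2RB and 1.61% in aPD1 + aGMCSF + aIL2RB tumors. Levels are given as CPM, the usual rate of counts per library size, after TMM scaling of library sizes by edgeR. The tumors also divided along their replicate numbers into sets of 22 and 20 that no label names. The lower numbers form what is called here the first set, namely isotype control 1 and 2, aPD1 1 to 3, aPD1 + aGMCSF 1 to 5, aPD1 + aIL2RB 1 to 6 and aPD1 + aGMCSF + aIL2RB 1 to 6. With treatment in the model, 21 of the 42 members differed between the sets, 5 higher and 16 lower in the second (background over the 16932 genes tested, 25.1% in either direction, 13.6% higher and 11.5% lower). The division was first seen in an earlier analysis of these same data. Differences between the sets are therefore partly built in, and these counts only describe them. Values within a set are given beside the results they bear on most and, for further genes, at the end.

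The labelled tissue was checked against marker genes. Markers of fibroblast subtypes outside the list (16 genes) summed to between 927 and 1212 CPM across the 42 tumors, and every member was detected in every tumor, Fap at the lowest levels of 1.26 to 4.13 CPM. Markers of colon epithelium and MC38 cells summed to only 13.4 to 46.7 CPM. Of the 8 markers on that list, 5 passed the filter on low counts, Krt20 was at 0 in the median tumor and Cdx2 was not in the table. In a bulk sample, fewer cells of a type and less RNA per cell cannot be told apart, and the share of each transcript made by the cancer cells was not tested.

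Per kilobase of annotated exon, the members spanned a wide range of levels. Averaged over the 42 tumors, Col6a1 was highest at 315 CPM per kilobase, followed by Col3a1 (289), Timp2 (204), Fn1 (171), Col6a2 (136), Dcn (122) and Sparc (121). Col1a1, the chain that forms type I collagen with Col1a2, stood at 77.4 and Col1a2 at 28.7 CPM per kilobase. The lowest were Apod (1.99), Epha3 (1.04) and Fap (0.384). Col3a1, a chain of type III collagen, was above Col1a1 on this scale, with group means of 186 against 111 CPM per kilobase in aPD1 tumors and 356 against 69.5 in aPD1 + aIL2RB tumors.

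Members were tested with edgeR's quasi-likelihood method, fitted to all 42 tumors and 16932 genes, with p-values adjusted over all genes by the Benjamini-Hochberg method and a threshold of 0.05. A gene is said to rise or fall only where it passed. Between aPD1 and isotype control tumors, 12 members rose and 2 fell (background over all genes, 8.71% in either direction, 6.17% higher and 2.54% lower). With aPD1 as the reference, 11 members were higher and 9 lower in aPD1 + aGMCSF tumors (background 13.5%, 4.77% higher and 8.75% lower), 17 were higher and 14 lower in aPD1 + aIL2RB tumors (background 27.4%, 13% higher and 14.5% lower), and 19 were higher and 8 lower in aPD1 + aGMCSF + aIL2RB tumors (background 27.4%, 13.1% higher and 14.3% lower). These 3 comparisons and that of aPD1 with isotype control share the 6 aPD1 tumors. The 6 members Fbn1, Tnc, Thbs2, Lox, Mmp14 and Timp1 passed in none of the 10 pairs of groups.

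**Figure D1:**
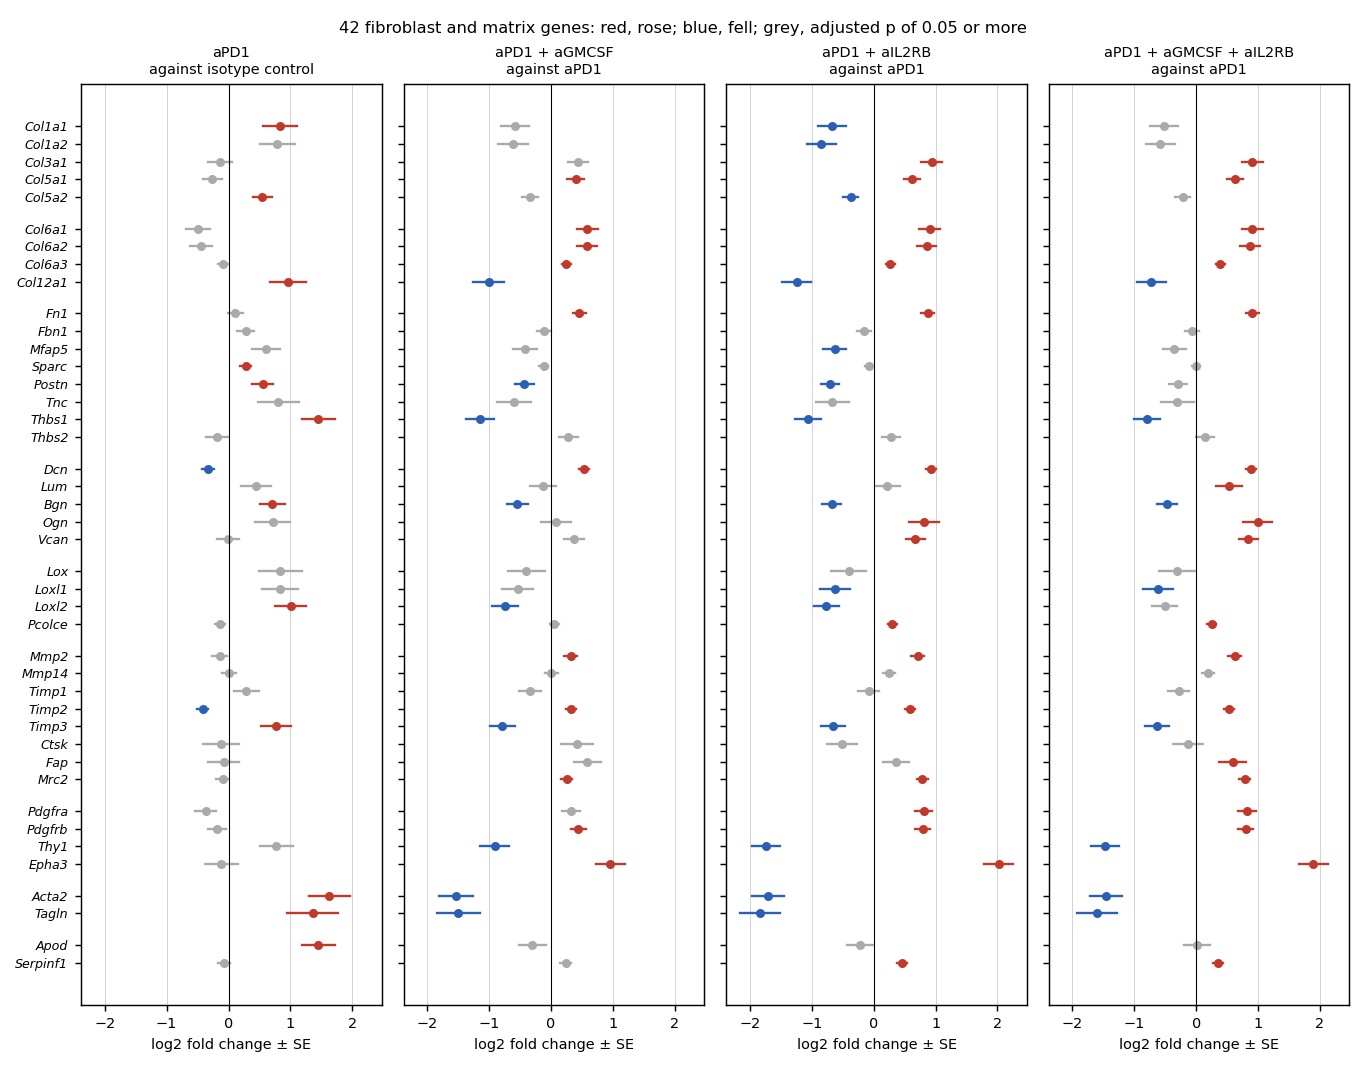
Log2 fold change ± SE of each of the 42 genes, ordered by role, in the 4 comparisons that share the aPD1 tumors (edgeR, all 42 tumors in the model; red, higher with adjusted p under 0.05; blue, lower; grey, not past the threshold). The numbers of red and blue points are 12 and 2, 11 and 9, 17 and 14, and 19 and 8 from left to right.

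Of the 42 genes, the contractile pair is described first. Acta2 (ENSMUSG00000035783, chr19:34241090-34255590, minus strand, positions on GRCm38 from GENCODE M21 here and for the genes that follow) encodes smooth muscle alpha-actin, the usual marker of myofibroblasts, and Tagln encodes the actin-binding protein transgelin. Both rose with aPD1 and fell, relative to aPD1, in all 3 groups given a blocking antibody. Acta2 was at 10.1, 12.9, 14.5, 17.5 and 20.9 CPM in the 5 isotype control tumors. For Acta2 the lowest, median and highest levels were 20.6, 44 and 75.8 CPM in aPD1 and 7.73, 16.5 and 23 CPM in aPD1 + aGMCSF tumors. With IL2RB blocked, Acta2 had levels in that order of 5.7, 13.4 and 21.9 CPM in aPD1 + aIL2RB and 9.48, 15.1 and 38.3 CPM in aPD1 + aGMCSF + aIL2RB tumors. Of the aPD1 tumors only replicate 2, at 20.6 CPM, lay within the isotype control range, and the highest was replicate 4. On the log2 scale Acta2 rose by 1.63 ± 0.33 (adjusted p = 0.00235) with aPD1 against isotype control. Relative to aPD1 it fell by 1.53 ± 0.28 (adjusted p = 0.000312) in aPD1 + aGMCSF tumors, it fell by 1.71 ± 0.26 (adjusted p = 4.11e-06) in aPD1 + aIL2RB tumors and it fell by 1.45 ± 0.26 (adjusted p = 5.2e-05) in aPD1 + aGMCSF + aIL2RB tumors. These 4 calls remained whenever any 1 tumor was left out. Within the first set the rise was 1.53 (adjusted p = 0.276), and the falls in aPD1 + aGMCSF and aPD1 + aGMCSF + aIL2RB were -1.13 (adjusted p = 0.232) and -1.23 (adjusted p = 0.0707). Levels in the groups given blocking antibodies overlapped with isotype control, and the log2 differences of 0.10, -0.08 and 0.17 from it did not pass (adjusted p = 0.979, 0.919 and 0.751).

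Tagln was at 5.19, 5.75, 6.4, 7.75 and 8.06 CPM in the 5 isotype control tumors. For Tagln the lowest, median and highest levels were 8.34, 15.7 and 31.2 CPM in aPD1 and 2.4, 5.42 and 9.89 CPM in aPD1 + aGMCSF tumors. With IL2RB blocked, Tagln had levels in that order of 1.32, 5.24 and 9.06 CPM in aPD1 + aIL2RB and 2.2, 4.52 and 14.1 CPM in aPD1 + aGMCSF + aIL2RB tumors. All 6 aPD1 tumors lay above all 5 isotype control tumors, a separation seen in 3.38% of all genes in that direction. Tagln rose by 1.36 ± 0.41 (adjusted p = 0.03) on the log2 scale, a call lost without any 1 of isotype control replicates 1 to 4, or aPD1 replicates 4 and 5 (adjusted p = 0.053 to 0.118). Its log2 differences from aPD1 in the aPD1 + aGMCSF, aPD1 + aIL2RB and aPD1 + aGMCSF + aIL2RB groups were -1.5, -1.84 and -1.61 (adjusted p = 0.00278, 3.33e-05 and 0.000232), and none of these falls was lost without 1 tumor. Within the first set the first and last of them were -1.13 (adjusted p = 0.324) and -1.30 (adjusted p = 0.112). Exons of Pcsk7 overlap Tagln in the annotation, so some reads may be shared. Of 10 mural cell markers, genes of pericytes and vascular smooth muscle, 2 rose and 1 fell with aPD1 against isotype control (background 6.17% higher and 2.54% lower). On the log2 scale Des rose by 2.73 and Myh11 by 1.33, and Kcnj8 fell by 0.70. The median sum of the 10 markers was 234.4 CPM in isotype control and 234.3 CPM in aPD1 tumors. Skeletal muscle markers rose in the same comparison, as given below, and which cells made the Des transcript was not tested.

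**Figure D2:**
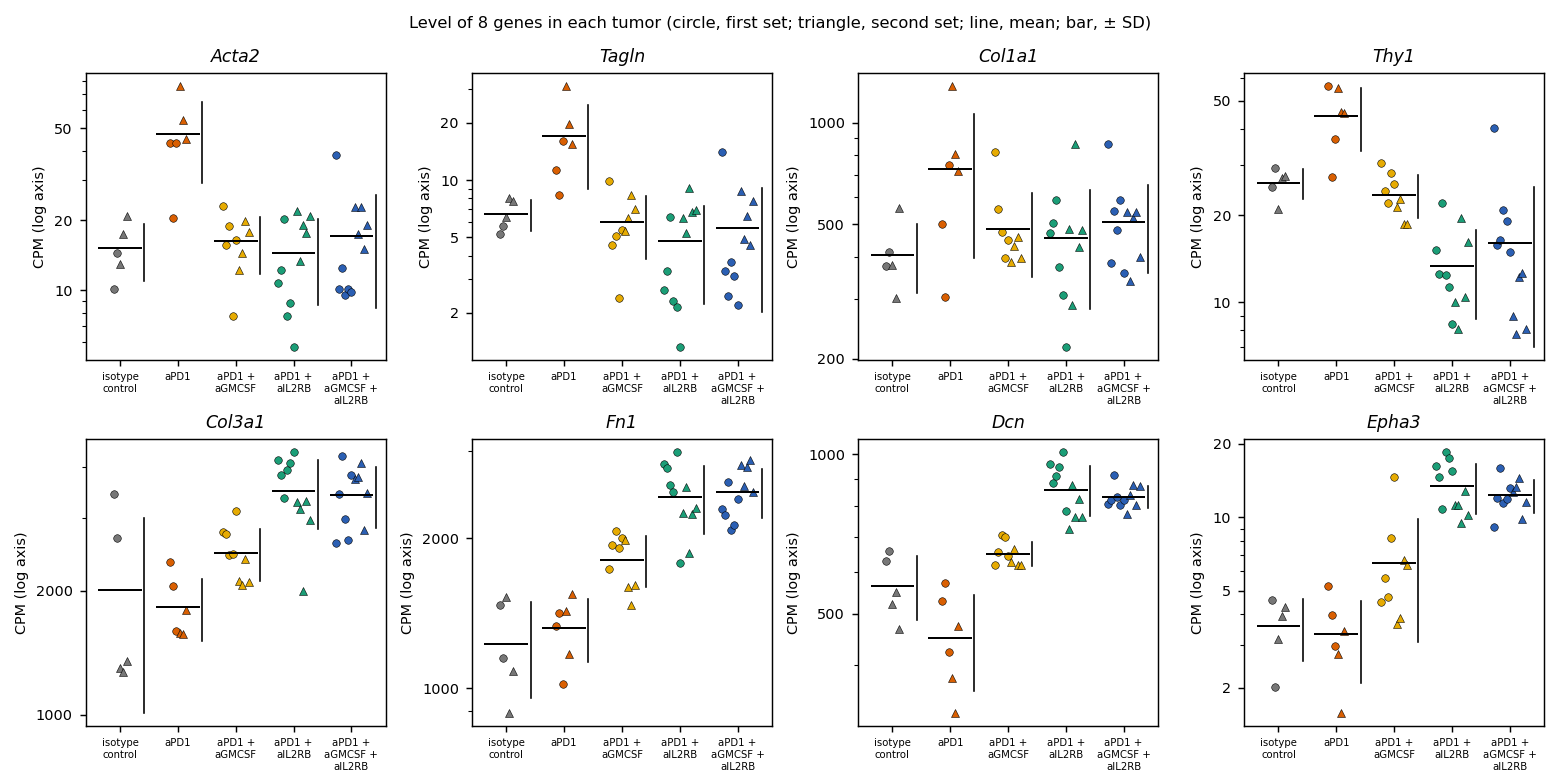
CPM on a log axis in each of the 42 tumors by treatment group for Acta2, Tagln, Col1a1, Thy1, Col3a1, Fn1, Dcn and Epha3 (circle, first set; triangle, second set; horizontal line, group mean; vertical bar, ± SD). Acta2 averaged 46.9 ± 18 CPM in aPD1 tumors against 15.2 ± 4.18 in isotype control tumors, and Dcn averaged 858 ± 94 CPM in aPD1 + aIL2RB tumors against 450.3 ± 92.5 in aPD1 tumors (SD, n = 6, 5, 11 and 6).

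Markers of other cell types moved with the same groups. All 7 skeletal muscle markers rose with aPD1 against isotype control, by a median of 4.37 on the log2 scale. The lowest, median and highest sums of these 7 genes were 0.327, 1.35 and 31 CPM in isotype control tumors and 0.775, 151 and 849 CPM in aPD1 tumors. In the aPD1 + aGMCSF, aPD1 + aIL2RB and aPD1 + aGMCSF + aIL2RB groups the highest sums were 232, 116 and 245 CPM, and the medians 26.7, 32.6 and 58.1 CPM. The tumor with the highest Acta2, aPD1 replicate 4, was the aPD1 tumor with the lowest muscle sum. Without the 10 tumors over 100 CPM of these markers, which left 3 aPD1 and 5 isotype control tumors, the log2 difference of Acta2 was 1.61 (adjusted p = 0.00659). The rise of Tagln did not pass in that fit, which lost 9 of the 14 calls of members. General leukocyte markers (5 of 5) and macrophage and monocyte markers (8 of 10) also rose with aPD1 and fell in each group given a blocking antibody relative to aPD1. The macrophage and monocyte markers summed to 2622, 2748 and 3178 CPM in isotype control tumors and 3060.0, 4195 and 5891 CPM in aPD1 tumors, and the last value was again aPD1 replicate 4. In the groups given blocking antibodies the medians of that sum were 2665, 2665 and 2671 CPM, near that of isotype control. Sums of the 10 T and NK cell markers ran from 62.9 to 77.1 CPM in isotype control tumors, 98.5 to 226 CPM in aPD1 tumors, 39.4 to 90.3 CPM in aPD1 + aGMCSF tumors, 3.89 to 46.9 CPM in aPD1 + aIL2RB tumors and 0.565 to 109 CPM in aPD1 + aGMCSF + aIL2RB tumors. All 10 fell in both aIL2RB groups relative to aPD1, 2 of 10 fell in aPD1 + aGMCSF, and 0 of 10 passed between aPD1 and isotype control. Their part in the levels of the 42 genes was not tested.

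**Figure D3:**
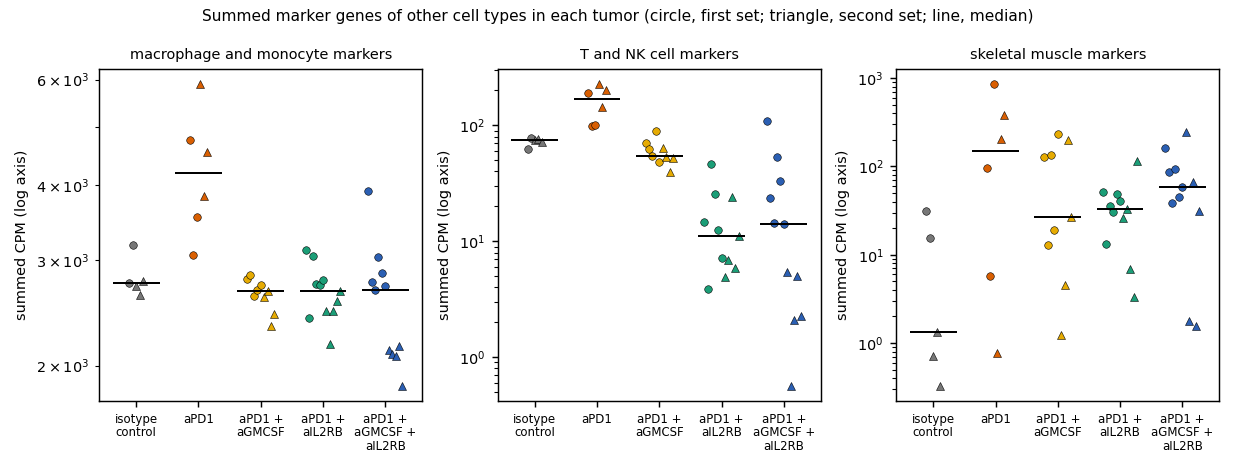
Summed CPM on a log axis of 10 macrophage and monocyte, 10 T and NK cell and 7 skeletal muscle markers in each tumor by group (circle, first set; triangle, second set; line, median). The highest macrophage and monocyte sum, 5891 CPM, and the lowest muscle sum of the aPD1 group, 0.775 CPM, belonged to the same tumor, aPD1 replicate 4.

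The 5 fibrillar collagen chains did not move in a single direction. Of these, 2 rose with aPD1 against isotype control (Col1a1 and Col5a2). In aPD1 + aIL2RB tumors relative to aPD1, 3 fell (Col1a1, Col1a2 and Col5a2) and 2 rose (Col3a1 and Col5a1). Col1a1 (ENSMUSG00000001506, chr11:94936224-94953042, plus strand) and Col1a2 (ENSMUSG00000029661, chr6:4504814-4541544, plus strand) encode the chains of type I collagen, the main fibril of most connective tissue. Col1a1 was at 303, 376, 379, 415 and 559.8 CPM in the 5 isotype control tumors. For Col1a1 the lowest, median and highest levels were 304, 733 and 1280.2 CPM in aPD1 and 386, 449 and 817 CPM in aPD1 + aGMCSF tumors. With IL2RB blocked, Col1a1 had levels in that order of 217, 471 and 866 CPM in aPD1 + aIL2RB and 339, 523 and 866 CPM in aPD1 + aGMCSF + aIL2RB tumors. The groups overlapped, and aPD1 tumors spanned the widest range, from replicate 2 to replicate 4. Col1a1 rose by 0.84 ± 0.27 (adjusted p = 0.0453) on the log2 scale with aPD1 against isotype control and fell by 0.67 ± 0.22 (adjusted p = 0.0191) in aPD1 + aIL2RB relative to aPD1 tumors. The first call was lost without any 1 of isotype control replicates 1 to 4, or aPD1 replicates 3 to 6 (adjusted p = 0.0532 to 0.191). The second was lost without aPD1 replicate 4, at -0.43 (adjusted p = 0.165). The first was also lost without tumors rich in muscle markers, at 0.76 (adjusted p = 0.161), in a fit of these groups alone, at 0.84 (adjusted p = 0.0829), with scaling by library size, at 0.75 (adjusted p = 0.051), and with a looser filter on low counts (a total of at least 5), at 0.84 (adjusted p = 0.059). The second was also lost within the first set, at -0.33 (adjusted p = 0.487), without tumors rich in muscle markers, at -0.61 (adjusted p = 0.15), and in a fit of these groups alone, at -0.69 (adjusted p = 0.0549). Within the first set the difference between aPD1 and isotype control was 0.39 (adjusted p = 0.74) and within the second set 1.19 (adjusted p = 0.00916). Its log2 differences from aPD1 in the aPD1 + aGMCSF and aPD1 + aGMCSF + aIL2RB groups, -0.59 ± 0.23 and -0.52 ± 0.22, did not pass (adjusted p = 0.0856 and 0.0763). Within the first set the former was 0.06 (adjusted p = 0.967) and within the second set -1.18 (adjusted p = 0.00405), a difference between the sets that did not itself pass (interaction, adjusted p = 0.236). The former also passed without any 1 of aPD1 replicate 2 or aPD1 + aGMCSF replicate 1 (adjusted p = 0.0177 to 0.032). The latter passed within the second set, at -1.01 (adjusted p = 0.00405), and without any 1 of aPD1 replicates 1 and 2, or aPD1 + aGMCSF + aIL2RB replicate 1 (adjusted p = 0.0143 to 0.0483).

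Col1a2 was at 227, 273, 287, 332 and 413 CPM in the 5 isotype control tumors. For Col1a2 the lowest, median and highest levels were 247, 540.4 and 892 CPM in aPD1 and 278, 319.6 and 613 CPM in aPD1 + aGMCSF tumors. With IL2RB blocked, Col1a2 had levels in that order of 132, 297 and 565 CPM in aPD1 + aIL2RB and 218, 350.1 and 665 CPM in aPD1 + aGMCSF + aIL2RB tumors. The same tumors were extreme for both type I chains, aPD1 replicate 4 being the highest and aPD1 + aIL2RB replicate 6 the lowest of all 42. In the fit of all tumors Col1a2 passed in aPD1 + aIL2RB against aPD1, where it fell by 0.85 ± 0.23 (adjusted p = 0.00482) on the log2 scale. Without tumors rich in muscle markers that difference was -0.78 (adjusted p = 0.0588), and within the first set -0.62 (adjusted p = 0.194). Between aPD1 and isotype control the difference of 0.79 ± 0.29 (adjusted p = 0.0736) did not pass, but it passed without aPD1 replicate 2 (adjusted p = 0.0243), within the second set, at 1.12 (adjusted p = 0.0149), and with the replicate number as a block, at 0.90 (adjusted p = 0.0381). In aPD1 + aGMCSF relative to aPD1 the difference was -0.61 ± 0.24 (adjusted p = 0.0883), which passed within the second set, at -1.18 (adjusted p = 0.00454), and without any 1 of aPD1 replicate 2 or aPD1 + aGMCSF replicate 1 (adjusted p = 0.0253 to 0.0303). In aPD1 + aGMCSF + aIL2RB relative to aPD1 it was -0.58 ± 0.23 (adjusted p = 0.0565), which passed within the second set, at -1.06 (adjusted p = 0.00309), with the replicate block, at -0.64 (adjusted p = 0.0398), and without any 1 of aPD1 replicates 1 and 2, or aPD1 + aGMCSF + aIL2RB replicates 1 and 5 (adjusted p = 0.0117 to 0.0468). Col5a2, a chain of type V collagen, which is built into type I fibrils, rose by 0.55 ± 0.15 (adjusted p = 0.016) with aPD1 against isotype control, a call lost without any 1 of isotype control replicate 4 or aPD1 replicate 4 (adjusted p = 0.0609 to 0.1). It fell by 0.37 ± 0.12 (adjusted p = 0.0193) in aPD1 + aIL2RB relative to aPD1, which was lost without aPD1 replicate 4 (adjusted p = 0.235).

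Col3a1 (ENSMUSG00000026043, chr1:45311538-45349706, plus strand), whose promoter is printed above, encodes type III collagen of extensible tissue. Col3a1 was at 1269, 1300.1, 1352, 2694 and 3433 CPM in the 5 isotype control tumors. For Col3a1 the lowest, median and highest levels were 1568, 1699.8 and 2349 CPM in aPD1 and 2069.9, 2439.8 and 3134 CPM in aPD1 + aGMCSF tumors. With IL2RB blocked, Col3a1 had levels in that order of 2004, 3359 and 4342 CPM in aPD1 + aIL2RB and 2617, 3455 and 4258 CPM in aPD1 + aGMCSF + aIL2RB tumors. Isotype control replicates 1 and 2, at 3433 and 2694 CPM, stood apart from replicates 3 to 5, along the division into sets. All 11 aPD1 + aGMCSF + aIL2RB tumors lay above all 6 aPD1 tumors. On the log2 scale Col3a1 rose by 0.94 ± 0.17 (adjusted p = 3.17e-05) in aPD1 + aIL2RB and by 0.91 ± 0.17 (adjusted p = 5.93e-05) in aPD1 + aGMCSF + aIL2RB tumors relative to aPD1, and neither call was lost without 1 tumor. Relative to isotype control the rises were 0.80 ± 0.18 (adjusted p = 0.00695) and 0.77 ± 0.18 (adjusted p = 0.00565), the former lost without isotype control replicate 4 (adjusted p = 0.0508). The latter differed between the sets (interaction, adjusted p = 0.000866), being 0.10 (adjusted p = 0.798) in the first and 1.45 (adjusted p = 9.99e-07) in the second. Between aPD1 and isotype control the difference of -0.14 ± 0.19 (adjusted p = 0.709) did not pass. In aPD1 + aGMCSF relative to aPD1 the difference of 0.44 ± 0.17 (adjusted p = 0.0754) did not pass. It passed in a fit of these 2 groups alone, at 0.45 (adjusted p = 0.00669), with the set as a term, at 0.42 (adjusted p = 0.0399), with the replicate block, at 0.51 (adjusted p = 0.0436), with scaling by library size only, at 0.49 (adjusted p = 0.0459), and without aPD1 replicate 1 (adjusted p = 0.0474). Col5a1, a further type V chain, was higher than in aPD1 in the aPD1 + aGMCSF, aPD1 + aIL2RB and aPD1 + aGMCSF + aIL2RB groups, by 0.40, 0.62 and 0.62 (adjusted p = 0.044, 0.000352 and 0.000375) on the log2 scale. The first of these was lost without any 1 of aPD1 replicates 3 to 6, or aPD1 + aGMCSF replicates 1 to 5, 8 and 9 (adjusted p = 0.0515 to 0.15). Exons of other annotated genes overlap Col5a1.

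Among the other collagens, the 3 chains of type VI, which forms beaded filaments around cells, rose in every group given a blocking antibody relative to aPD1, and Col12a1, which lies on the surface of fibrils, fell. Col6a1 averaged 855 ± 256 CPM in aPD1, 1283 ± 175 in aPD1 + aGMCSF, 1599 ± 378 in aPD1 + aIL2RB and 1604 ± 314 in aPD1 + aGMCSF + aIL2RB tumors (SD, n = 6, 9, 11 and 11). Its log2 differences from aPD1 in these groups were 0.59, 0.90 and 0.91 (adjusted p = 0.0183, 7.1e-05 and 7.92e-05). Col6a2 gave 0.58, 0.86 and 0.87 (adjusted p = 0.0115, 4.97e-05 and 5.19e-05) and Col6a3 gave 0.25, 0.27 and 0.39 (adjusted p = 0.0193, 0.00335 and 7.48e-05). The first call of each chain, in aPD1 + aGMCSF, was lost without aPD1 replicate 4 (adjusted p = 0.0854 for Col6a1, 0.0617 for Col6a2 and 0.0612 for Col6a3), and that of Col6a3 also without aPD1 replicate 5 (adjusted p = 0.0528). Without tumors rich in muscle markers the first call was lost for all 3 chains, with Col6a1 at 0.42 (adjusted p = 0.398) and Col6a2 at 0.45 (adjusted p = 0.297). Against isotype control only Col6a3 passed, in aPD1 + aGMCSF + aIL2RB tumors (0.30 ± 0.08, adjusted p = 0.0119), and this was lost without any 1 of isotype control replicates 2 and 4 (adjusted p = 0.0537 to 0.0962). Col12a1 rose by 0.97 ± 0.29 (adjusted p = 0.03) with aPD1 against isotype control, which was lost without any 1 of isotype control replicates 1, 2 and 4, or aPD1 replicates 1 and 4 (adjusted p = 0.055 to 0.148). Its log2 differences from aPD1 in the 3 groups were -1.01, -1.25 and -0.73 (adjusted p = 0.0046, 7.09e-05 and 0.0173). The first and last of these falls were lost without aPD1 replicate 4 (adjusted p = 0.0541 and 0.17).

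Of the 8 glycoproteins and fiber proteins, 3 rose with aPD1 against isotype control (Thbs1, Postn and Sparc). In aPD1 + aIL2RB relative to aPD1, Fn1 rose and Thbs1, Postn and Mfap5 fell. Fn1 (ENSMUSG00000026193, chr1:71585520-71653200, minus strand) encodes fibronectin, which links collagen to the integrins of cells. Fn1 was at 892, 1085, 1149, 1466 and 1526 CPM in the 5 isotype control tumors. For Fn1 the lowest, median and highest levels were 1019.8, 1373 and 1545 CPM in aPD1 and 1468, 1910.4 and 2065 CPM in aPD1 + aGMCSF tumors. With IL2RB blocked, Fn1 had levels in that order of 1787, 2474 and 2976 CPM in aPD1 + aIL2RB and 2076, 2479 and 2872 CPM in aPD1 + aGMCSF + aIL2RB tumors. Every tumor of both aIL2RB groups lay above every aPD1 and isotype control tumor, and the 11 aPD1 + aGMCSF + aIL2RB tumors also above all aPD1 + aGMCSF tumors (background 0.0591% of genes). The log2 differences of Fn1 from aPD1 in the aPD1 + aGMCSF, aPD1 + aIL2RB and aPD1 + aGMCSF + aIL2RB groups were 0.46, 0.87 and 0.91 (adjusted p = 0.00364, 1.42e-07 and 1.03e-07). Relative to aPD1 + aGMCSF it rose by 0.41 ± 0.09 (adjusted p = 0.01) and 0.45 ± 0.09 (adjusted p = 0.00615) in the groups given aIL2RB without and with aGMCSF. Those groups were above isotype control by 0.98 ± 0.12 (adjusted p = 2.65e-07) and 1.01 ± 0.12 (adjusted p = 1.54e-07). No call of Fn1 was lost without 1 tumor. The rise over aPD1 + aGMCSF was lost within the second set in aPD1 + aIL2RB, at 0.42 (adjusted p = 0.218), where it was 0.43 (adjusted p = 0.0562) without tumors rich in muscle markers, and within the first set in aPD1 + aGMCSF + aIL2RB, at 0.24 (adjusted p = 0.375). In aPD1 + aGMCSF against isotype control the difference of 0.57 ± 0.12 (adjusted p = 0.132) did not pass, but it was called by DESeq2, at 0.57 (adjusted p = 0.00754), and by edgeR without isotype control replicate 3 (adjusted p = 0.0295). The rise in aPD1 + aGMCSF relative to aPD1 was 0.25 (adjusted p = 0.223) within the second set and 0.38 (adjusted p = 0.152) without tumors rich in muscle markers. Exons of Apol7d overlap Fn1 in the annotation.

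Thbs1, a thrombospondin that binds cells and growth factors, averaged 68.4 ± 11.9 CPM in isotype control and 187 ± 79 CPM in aPD1 tumors (SD, n = 5 and 6). It rose by 1.45 ± 0.27 (adjusted p = 0.00108) on the log2 scale with aPD1, and its differences from aPD1 in the aPD1 + aGMCSF, aPD1 + aIL2RB and aPD1 + aGMCSF + aIL2RB groups were -1.15, -1.06 and -0.80 (adjusted p = 0.000568, 0.000158 and 0.00395). None of these 4 calls was lost without 1 tumor, and all 4 were lost within the first set. There the difference from isotype control was 1.28 (adjusted p = 0.238), and those from aPD1 in the same order of groups were -0.65 (adjusted p = 0.403), -0.73 (adjusted p = 0.119) and -0.39 (adjusted p = 0.508). Postn, periostin, a secreted protein of remodeling tissue, rose by 0.55 ± 0.17 (adjusted p = 0.039) with aPD1 against isotype control, which was lost without any 1 of isotype control replicates 1 to 4, or aPD1 replicates 3 and 4 (adjusted p = 0.062 to 0.204). It fell by 0.43 ± 0.15 (adjusted p = 0.0474) in aPD1 + aGMCSF, which was lost without any 1 of aPD1 replicates 3 to 5, or aPD1 + aGMCSF replicates 3, 4 and 6 to 9 (adjusted p = 0.0583 to 0.334), and fell by 0.71 ± 0.14 (adjusted p = 0.00018) in aPD1 + aIL2RB tumors relative to aPD1. Sparc, a collagen-binding glycoprotein, rose by 0.27 ± 0.08 (adjusted p = 0.0283) with aPD1 against isotype control, lost without any 1 of isotype control replicates 1, 3 and 4, or aPD1 replicates 3 to 5 (adjusted p = 0.0576 to 0.124), and by 0.27 ± 0.07 (adjusted p = 0.0178) in aPD1 + aGMCSF + aIL2RB against isotype control, lost without isotype control replicate 4 (adjusted p = 0.086). Mfap5, a microfibril protein, fell by 0.63 ± 0.19 (adjusted p = 0.00934) in aPD1 + aIL2RB relative to aPD1, which was lost without aPD1 replicate 4 (adjusted p = 0.148). For Fbn1, Tnc and Thbs2, which encode a fibrillin, a tenascin and a further thrombospondin, the log2 differences between aPD1 and isotype control were 0.27 ± 0.13, 0.81 ± 0.33 and -0.19 ± 0.17, and no pair of groups passed.

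Of the 5 proteoglycans, Dcn, Ogn and Vcan rose and Bgn fell in aPD1 + aIL2RB relative to aPD1. Dcn (ENSMUSG00000019929, chr10:97479609-97518143, plus strand) encodes decorin, which binds collagen fibrils and sets their spacing. It passed in 8 of the 10 pairs of groups, more than any other member. Dcn was at 468, 523, 549.7, 629 and 658 CPM in the 5 isotype control tumors. For Dcn the lowest, median and highest levels were 325, 449 and 571 CPM in aPD1 and 617, 643 and 705 CPM in aPD1 + aGMCSF tumors. With IL2RB blocked, Dcn had levels in that order of 724, 877 and 1009.9 CPM in aPD1 + aIL2RB and 773, 821 and 913 CPM in aPD1 + aGMCSF + aIL2RB tumors. All 9 aPD1 + aGMCSF tumors lay above all aPD1 tumors (background 0.656% of genes), and all 22 tumors given aIL2RB lay above all tumors of the other 3 groups. On the log2 scale Dcn fell by 0.33 ± 0.09 (adjusted p = 0.023) with aPD1 against isotype control. That fall was lost without any 1 of isotype control replicates 1 and 2, or aPD1 replicates 4 and 5 (adjusted p = 0.0664 to 0.0843). In a fit of these groups alone it was -0.33 (adjusted p = 0.156), within the first set -0.34 (adjusted p = 0.201), and without tumors rich in muscle markers it was -0.21 (adjusted p = 0.26). The differences from aPD1 in the aPD1 + aGMCSF, aPD1 + aIL2RB and aPD1 + aGMCSF + aIL2RB groups were 0.53, 0.93 and 0.89 (adjusted p = 8.38e-05, 9.6e-11 and 4.51e-10). In aPD1 + aIL2RB and aPD1 + aGMCSF + aIL2RB tumors Dcn was above isotype control by 0.60 ± 0.09 (adjusted p = 1.83e-05) and 0.56 ± 0.09 (adjusted p = 6.09e-05), and above aPD1 + aGMCSF by 0.40 ± 0.07 (adjusted p = 0.000828) and 0.36 ± 0.07 (adjusted p = 0.00419). These 7 rises remained in every fit without 1 tumor. That of aPD1 + aGMCSF over aPD1 was lost within the first set, at 0.39 (adjusted p = 0.0556), and that of aPD1 + aIL2RB over aPD1 + aGMCSF within the second, at 0.32 (adjusted p = 0.128). The rise of aPD1 + aGMCSF + aIL2RB over aPD1 differed between the sets (interaction, adjusted p = 0.0462), being 0.71 (adjusted p = 9e-05) in the first and 1.07 (adjusted p = 1.9e-08) in the second.

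Ogn (ENSMUSG00000021390, chr13:49608046-49624501, plus strand) encodes osteoglycin, a related small proteoglycan present at lower levels. Ogn was at 1.94, 2.62, 2.67, 6.66 and 7.51 CPM in the 5 isotype control tumors. For Ogn the lowest, median and highest levels were 6.24, 6.71 and 8.49 CPM in aPD1 and 4.84, 6.13 and 13 CPM in aPD1 + aGMCSF tumors. With IL2RB blocked, Ogn had levels in that order of 5.48, 13 and 20.2 CPM in aPD1 + aIL2RB and 9.64, 14.2 and 17.7 CPM in aPD1 + aGMCSF + aIL2RB tumors. The 11 aPD1 + aGMCSF + aIL2RB tumors lay above all isotype control and all aPD1 tumors, and isotype control replicates 3 to 5, of the second set, were the lowest of all 42. Relative to aPD1, Ogn rose by 0.81 ± 0.24 (adjusted p = 0.00857) in aPD1 + aIL2RB and 0.99 ± 0.24 (adjusted p = 0.00161) in aPD1 + aGMCSF + aIL2RB tumors on the log2 scale. Relative to isotype control the rises were 1.52 ± 0.27 (adjusted p = 0.000588) and 1.70 ± 0.27 (adjusted p = 8.56e-05), and relative to aPD1 + aGMCSF the group given both antibodies was higher by 0.91 ± 0.21 (adjusted p = 0.0141). The rise of that group over isotype control differed between the sets (interaction, adjusted p = 0.0152), being 0.89 (adjusted p = 0.0688) in the first and 2.62 (adjusted p = 9.99e-07) in the second.

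Vcan encodes versican, a large proteoglycan of loose matrix. It rose by 0.67 ± 0.15 (adjusted p = 0.000843) and 0.84 ± 0.15 (adjusted p = 6.75e-05) in aPD1 + aIL2RB and aPD1 + aGMCSF + aIL2RB relative to aPD1. It was also above isotype control in both, by 0.66 ± 0.16 (adjusted p = 0.0186) and 0.83 ± 0.16 (adjusted p = 0.0019), the former lost without any 1 of isotype control replicates 2 and 4 (adjusted p = 0.0531 to 0.108). Lum, lumican, a regulator of fibril thickness, passed only with both blocking antibodies. It was higher than aPD1 (0.53 ± 0.20, adjusted p = 0.0472), isotype control (0.98 ± 0.22, adjusted p = 0.00537) and aPD1 + aGMCSF (0.66 ± 0.18, adjusted p = 0.0398). The first was lost without any 1 of aPD1 replicates 1, 2 and 5, or aPD1 + aGMCSF + aIL2RB replicates 1, 3 and 7 to 11 (adjusted p = 0.0533 to 0.153) and the last without any 1 of aPD1 + aGMCSF replicates 2, 3 and 6 to 9, or aPD1 + aGMCSF + aIL2RB replicates 7 to 9 and 11 (adjusted p = 0.0503 to 0.0887). The last was also lost within the first set, where it was only 0.25 (adjusted p = 0.771). It was lost as well without tumors rich in muscle markers, at 0.76 (adjusted p = 0.0688), and with the looser filter, at 0.66 (adjusted p = 0.0514). Bgn, biglycan, followed the opposite course. It rose by 0.71 ± 0.20 (adjusted p = 0.0179) with aPD1 against isotype control, which was lost without any 1 of isotype control replicate 4 or aPD1 replicate 4 (adjusted p = 0.0634 to 0.084). Its log2 differences from aPD1 in the 3 groups given blocking antibodies were -0.55, -0.68 and -0.47 (adjusted p = 0.0226, 0.00102 and 0.0236). The first and last of these falls were lost without aPD1 replicate 3 or 4 (adjusted p up to 0.135 and 0.15).

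Of the 4 genes of collagen processing, Loxl1 and Loxl2, lysyl oxidases that cross-link collagen, fell in aPD1 + aIL2RB relative to aPD1, and Pcolce, which helps to cleave procollagen, rose. Loxl2 ran from 7.25 CPM in aPD1 + aIL2RB replicate 6 to 42.7 CPM in aPD1 replicate 4. It rose by 1.00 ± 0.25 (adjusted p = 0.0104) on the log2 scale with aPD1 against isotype control, lost without aPD1 replicate 4 (adjusted p = 0.0558), and fell by 0.75 ± 0.21 (adjusted p = 0.0139) in aPD1 + aGMCSF, lost without aPD1 replicate 4 (adjusted p = 0.112). In aPD1 + aIL2RB it fell by 0.77 ± 0.20 (adjusted p = 0.00354), a call not lost without 1 tumor but lost within the first set, at -0.57 (adjusted p = 0.178). Loxl1 fell by 0.63 ± 0.24 (adjusted p = 0.0434) in aPD1 + aIL2RB, lost without any 1 of aPD1 replicates 3 to 6, or aPD1 + aIL2RB replicates 1, 2 and 4 to 8 (adjusted p = 0.0573 to 0.233). In aPD1 + aGMCSF + aIL2RB it fell by 0.62 ± 0.24 (adjusted p = 0.0467), lost without any 1 of aPD1 replicates 3 to 6, or aPD1 + aGMCSF + aIL2RB replicates 2 to 6, 8, 9 and 11 (adjusted p = 0.0524 to 0.244). Lox itself spanned 10.7 to 83.6 CPM within the aPD1 group and passed in no pair. Pcolce rose by 0.30 ± 0.07 (adjusted p = 0.0007) and 0.25 ± 0.07 (adjusted p = 0.00496) in the groups given aIL2RB without and with aGMCSF relative to aPD1, and by 0.25 ± 0.06 (adjusted p = 0.0175) in aPD1 + aIL2RB relative to aPD1 + aGMCSF, the last lost without aPD1 + aGMCSF replicate 1 (adjusted p = 0.0539). Exons of Loxl2 and Pcolce overlap other annotated genes.

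Of the 8 genes of matrix turnover, Mmp2, Timp2 and Mrc2 rose and Timp3 fell in aPD1 + aIL2RB relative to aPD1. Mrc2 (ENSMUSG00000020695, chr11:105292643-105351139, plus strand) encodes a receptor through which fibroblasts take up collagen fragments. Mrc2 was at 27.2, 29.7, 33.2, 33.3 and 33.9 CPM in the 5 isotype control tumors. For Mrc2 the lowest, median and highest levels were 24.8, 30.5 and 32.8 CPM in aPD1 and 29.6, 34.8 and 44.2 CPM in aPD1 + aGMCSF tumors. With IL2RB blocked, Mrc2 had levels in that order of 44.4, 52.6 and 59.1 CPM in aPD1 + aIL2RB and 43.2, 49 and 63.3 CPM in aPD1 + aGMCSF + aIL2RB tumors. All 11 aPD1 + aIL2RB tumors lay above all isotype control, aPD1 and aPD1 + aGMCSF tumors (background against the last, 0.0472% of genes). Only aPD1 + aGMCSF replicate 5 reached into the range of aPD1 + aGMCSF + aIL2RB tumors. On the log2 scale Mrc2 rose by 0.79 ± 0.09 (adjusted p = 1.57e-08) and 0.78 ± 0.09 (adjusted p = 2.14e-08) in aPD1 + aIL2RB and aPD1 + aGMCSF + aIL2RB relative to aPD1. The same groups were above isotype control by 0.69 ± 0.09 (adjusted p = 2.46e-06) and 0.69 ± 0.09 (adjusted p = 3.36e-06), and above aPD1 + aGMCSF by 0.53 ± 0.07 (adjusted p = 1.97e-05) and 0.53 ± 0.07 (adjusted p = 2.81e-05). None of these 6 calls was lost without 1 tumor, and 1, in aPD1 + aGMCSF + aIL2RB against aPD1 + aGMCSF, was lost within the first set, at 0.37 (adjusted p = 0.0792). The rise in aPD1 + aGMCSF relative to aPD1, 0.25 ± 0.09 (adjusted p = 0.0443), was lost without any 1 of aPD1 replicates 3 to 6, or aPD1 + aGMCSF replicates 1 to 5 and 8 (adjusted p = 0.0544 to 0.121).

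Mmp2 (ENSMUSG00000031740, chr8:92827291-92853420, plus strand) encodes a metalloproteinase that degrades gelatin and basement membrane collagen. Mmp2 was at 101, 105, 119.7, 121 and 152 CPM in the 5 isotype control tumors. For Mmp2 the lowest, median and highest levels were 83.3, 109 and 134 CPM in aPD1 and 117, 129 and 163 CPM in aPD1 + aGMCSF tumors. With IL2RB blocked, Mmp2 had levels in that order of 120.4, 169.9 and 228 CPM in aPD1 + aIL2RB and 138, 172 and 200.0 CPM in aPD1 + aGMCSF + aIL2RB tumors. All 11 aPD1 + aGMCSF + aIL2RB tumors lay above all aPD1 tumors. The log2 differences of Mmp2 from aPD1 in the aPD1 + aGMCSF, aPD1 + aIL2RB and aPD1 + aGMCSF + aIL2RB groups were 0.32, 0.71 and 0.62 (adjusted p = 0.047, 3.21e-06 and 2.64e-05), the first lost without any 1 of aPD1 replicates 2, 4 and 6, or aPD1 + aGMCSF replicates 1, 2, 4, 5, 8 and 9 (adjusted p = 0.0504 to 0.13). It was above isotype control by 0.57 ± 0.11 (adjusted p = 0.00266) and 0.48 ± 0.11 (adjusted p = 0.00718) in the groups given aIL2RB without and with aGMCSF, and above aPD1 + aGMCSF by 0.40 ± 0.09 (adjusted p = 0.016) in the former. Timp2 (ENSMUSG00000017466, chr11:118301069-118355740, minus strand) encodes an inhibitor that also helps to activate Mmp2. Timp2 was at 735, 764, 778, 838 and 842 CPM in the 5 isotype control tumors. For Timp2 the lowest, median and highest levels were 505, 575 and 754 CPM in aPD1 and 671, 732 and 824 CPM in aPD1 + aGMCSF tumors. With IL2RB blocked, Timp2 had levels in that order of 676, 879.6 and 1148 CPM in aPD1 + aIL2RB and 778, 817 and 1002 CPM in aPD1 + aGMCSF + aIL2RB tumors. All 5 isotype control tumors were above 5 of the 6 aPD1 tumors, and all aPD1 + aGMCSF + aIL2RB tumors were above all aPD1 tumors. Timp2 fell by 0.42 ± 0.09 (adjusted p = 0.00479) on the log2 scale with aPD1 against isotype control, and this was -0.33 (adjusted p = 0.0883) without tumors rich in muscle markers. Its differences from aPD1 in the 3 groups were 0.33, 0.59 and 0.53 (adjusted p = 0.00587, 6.64e-07 and 3.89e-06). It was also higher in aPD1 + aIL2RB than in aPD1 + aGMCSF tumors, by 0.26 ± 0.07 (adjusted p = 0.0422), which was lost without any 1 of aPD1 + aGMCSF replicates 1 to 6 and 9, or aPD1 + aIL2RB replicates 1 to 7 (adjusted p = 0.0513 to 0.105).

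Timp3, an inhibitor held in the matrix, took the opposite course to Timp2. It rose by 0.76 ± 0.24 (adjusted p = 0.0379) with aPD1 against isotype control, which was lost without any 1 of isotype control replicates 1 to 4, or aPD1 replicates 1 and 4 to 6 (adjusted p = 0.057 to 0.112). Its log2 differences from aPD1 in the aPD1 + aGMCSF, aPD1 + aIL2RB and aPD1 + aGMCSF + aIL2RB groups were -0.79, -0.66 and -0.63 (adjusted p = 0.00792, 0.00914 and 0.0127), the last lost without aPD1 replicate 4 (adjusted p = 0.0561). With both antibodies the difference of Timp3 from aPD1 was -0.15 ± 0.23 (adjusted p = 0.758) in the first set and -1.29 ± 0.22 (adjusted p = 9.82e-05) in the second (interaction, adjusted p = 0.0349). Relative to aPD1 + aIL2RB tumors it was 0.47 ± 0.19 (adjusted p = 0.668) in the first and -0.60 ± 0.20 (adjusted p = 0.0889) in the second (interaction, adjusted p = 0.0448). Timp3 shares exon positions with Syn3. Ctsk, a collagen-degrading cathepsin, passed once, with -0.93 ± 0.21 (adjusted p = 0.014) in aPD1 + aIL2RB against aPD1 + aGMCSF. That call was lost within the second set, at -0.47 (adjusted p = 0.618), and without tumors rich in muscle markers, at -0.92 (adjusted p = 0.089). Fap, a protease of activated fibroblasts, rose by 0.59 ± 0.21 (adjusted p = 0.0354) in aPD1 + aGMCSF + aIL2RB relative to aPD1, which was lost without any 1 of aPD1 replicates 1 to 4, or aPD1 + aGMCSF + aIL2RB replicates 1, 8 and 10 (adjusted p = 0.0539 to 0.0779). Mmp14, a membrane-bound activator of Mmp2, and Timp1 passed in no pair, with log2 differences between aPD1 and isotype control of 0.00 ± 0.11 and 0.28 ± 0.20.

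Of the 4 surface receptors, Pdgfra, Pdgfrb and Epha3 rose and Thy1 fell in both aIL2RB groups relative to aPD1. Pdgfra (ENSMUSG00000029231, chr5:75152292-75198215, plus strand) and Pdgfrb encode the receptors for platelet-derived growth factors, of which the former is the more specific to fibroblasts and the latter is shared with pericytes. Pdgfra was at 148, 152, 157, 223 and 319.9 CPM in the 5 isotype control tumors. For Pdgfra the lowest, median and highest levels were 123, 147 and 209 CPM in aPD1 and 168, 195 and 222 CPM in aPD1 + aGMCSF tumors. With IL2RB blocked, Pdgfra had levels in that order of 163, 276 and 341 CPM in aPD1 + aIL2RB and 209.5, 277 and 335 CPM in aPD1 + aGMCSF + aIL2RB tumors. Every aPD1 + aGMCSF + aIL2RB tumor lay above every aPD1 tumor, by a narrow margin. Isotype control replicates 1 and 2, of the first set, were the highest of their group, at 319.9 and 223 CPM. On the log2 scale Pdgfra rose by 0.81 ± 0.14 (adjusted p = 2.72e-05) and 0.82 ± 0.14 (adjusted p = 2.62e-05) in aPD1 + aIL2RB and aPD1 + aGMCSF + aIL2RB relative to aPD1. It was above aPD1 + aGMCSF by 0.49 ± 0.12 (adjusted p = 0.0256) and 0.51 ± 0.12 (adjusted p = 0.021), the former lost without any 1 of aPD1 + aGMCSF replicate 9, or aPD1 + aIL2RB replicates 1 and 4 to 6 (adjusted p = 0.0503 to 0.062). It was also lost within the second set, at 0.29 (adjusted p = 0.54), and without tumors rich in muscle markers, at 0.54 (adjusted p = 0.113). In aPD1 + aGMCSF relative to aPD1 the difference of 0.32 ± 0.14 (adjusted p = 0.139) did not pass, but it passed with the replicate block, at 0.42 (adjusted p = 0.031), and in a fit of these groups alone, at 0.33 (adjusted p = 0.0292). Against isotype control it passed with both blocking antibodies, at 0.45 ± 0.15 (adjusted p = 0.0438), which was lost without any 1 of isotype control replicates 2 to 5, or aPD1 + aGMCSF + aIL2RB replicates 2, 3, 5, 6, 8 and 9 (adjusted p = 0.0554 to 0.19). Exons of other annotated genes overlap Pdgfra.

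Pdgfrb was at 55.1, 62.6, 64.3, 75.2 and 84.6 CPM in the 5 isotype control tumors. For Pdgfrb the lowest, median and highest levels were 50.4, 60.0 and 72.1 CPM in aPD1 and 70.1, 80.6 and 103 CPM in aPD1 + aGMCSF tumors. With IL2RB blocked, Pdgfrb had levels in that order of 56.7, 105 and 125 CPM in aPD1 + aIL2RB and 74.8, 108 and 125 CPM in aPD1 + aGMCSF + aIL2RB tumors. As for Pdgfra, all 11 aPD1 + aGMCSF + aIL2RB tumors were above all aPD1 tumors. The log2 differences of Pdgfrb from aPD1 in the aPD1 + aGMCSF, aPD1 + aIL2RB and aPD1 + aGMCSF + aIL2RB groups were 0.44, 0.79 and 0.80 (adjusted p = 0.0143, 4.32e-06 and 4.4e-06), the first lost without aPD1 replicate 4 (adjusted p = 0.0591). It rose by 0.60 ± 0.13 (adjusted p = 0.00502) and 0.61 ± 0.13 (adjusted p = 0.00282) relative to isotype control in the groups given aIL2RB without and with aGMCSF.

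Epha3 (ENSMUSG00000052504, chr16:63543534-63864175, minus strand), an ephrin receptor of mesenchymal cells, had the largest rise of the 42 genes in each comparison of a group given a blocking antibody with aPD1. Epha3 was at 2.01, 3.18, 3.92, 4.3 and 4.58 CPM in the 5 isotype control tumors. For Epha3 the lowest, median and highest levels were 1.58, 3.19 and 5.21 CPM in aPD1 and 3.65, 5.65 and 14.6 CPM in aPD1 + aGMCSF tumors. With IL2RB blocked, Epha3 had levels in that order of 9.48, 12.8 and 18.5 CPM in aPD1 + aIL2RB and 9.17, 12 and 16 CPM in aPD1 + aGMCSF + aIL2RB tumors. The 22 tumors given aIL2RB did not overlap with the isotype control or aPD1 tumors, and a single aPD1 + aGMCSF tumor, replicate 5, lay within their range. The log2 differences of Epha3 from aPD1 in the aPD1 + aGMCSF, aPD1 + aIL2RB and aPD1 + aGMCSF + aIL2RB groups were 0.96 ± 0.24, 2.02 ± 0.24 and 1.89 ± 0.23 (adjusted p = 0.00521, 5.24e-08 and 1.99e-07). In the latter groups it was above isotype control by 1.90 ± 0.25 (adjusted p = 2.46e-06) and 1.78 ± 0.25 (adjusted p = 1.09e-05), and above aPD1 + aGMCSF by 1.06 ± 0.19 (adjusted p = 0.00103) and 0.94 ± 0.19 (adjusted p = 0.0056). No call of Epha3 was lost without 1 tumor. The rises of aPD1 + aGMCSF over aPD1, at 0.90 (adjusted p = 0.229), and of aPD1 + aGMCSF + aIL2RB over aPD1 + aGMCSF, at 0.71 (adjusted p = 0.257), were lost within the first set. The rise in aPD1 + aGMCSF relative to aPD1 was 0.50 (adjusted p = 0.315) without tumors rich in muscle markers. Its promoter window, printed above, holds the letters CAGAC near the start and none of the other motifs searched.

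Thy1 (ENSMUSG00000032011, chr9:44043384-44048579, plus strand) encodes a surface protein of fibroblasts that T cells of mice also carry. Thy1 was at 21, 25, 27.1, 27.5 and 29.2 CPM in the 5 isotype control tumors. For Thy1 the lowest, median and highest levels were 27.3, 45.5 and 56.1 CPM in aPD1 and 18.7, 22.9 and 30.3 CPM in aPD1 + aGMCSF tumors. With IL2RB blocked, Thy1 had levels in that order of 8.11, 12.4 and 22.2 CPM in aPD1 + aIL2RB and 7.75, 15 and 40.2 CPM in aPD1 + aGMCSF + aIL2RB tumors. All 11 aPD1 + aIL2RB tumors lay below all aPD1 tumors, as 2.99% of all genes did. The log2 differences of Thy1 from aPD1 in the aPD1 + aGMCSF, aPD1 + aIL2RB and aPD1 + aGMCSF + aIL2RB groups were -0.91, -1.74 and -1.47 (adjusted p = 0.0064, 2.77e-07 and 3.98e-06). With both antibodies the difference from aPD1 was -0.91 (adjusted p = 0.0467) in the first set and -2.31 (adjusted p = 3.84e-08) in the second (interaction, adjusted p = 0.0166). In aPD1 + aIL2RB tumors Thy1 was also below isotype control, at -0.97 ± 0.24 (adjusted p = 0.0162), which was lost without isotype control replicate 2 (adjusted p = 0.05004), and below aPD1 + aGMCSF, at -0.83 ± 0.20 (adjusted p = 0.0246), lost without any 1 of aPD1 + aGMCSF replicates 1 and 4, or aPD1 + aIL2RB replicates 6 and 8 (adjusted p = 0.05003 to 0.0607). Its differences of 0.77 ± 0.27 (adjusted p = 0.0652) between aPD1 and isotype control, -0.70 ± 0.24 (adjusted p = 0.0528) between aPD1 + aGMCSF + aIL2RB and isotype control and -0.56 ± 0.20 (adjusted p = 0.14) between the former and aPD1 + aGMCSF did not pass. They passed, in that order, without aPD1 replicate 2 (adjusted p = 0.0317), without any 1 of aPD1 + aGMCSF + aIL2RB replicates 1 and 4 (adjusted p = 0.00222 to 0.0423) and without aPD1 + aGMCSF + aIL2RB replicate 1 (adjusted p = 0.00489). The aPD1 + aGMCSF + aIL2RB tumor with the highest Thy1, replicate 1, also had the highest sum of T and NK cell markers in that group, 109 CPM. How much of Thy1 came from T cells was not tested.

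The remaining secreted proteins were Apod, a lipid-binding apolipoprotein, and Serpinf1, the pigment epithelium-derived factor. Apod averaged 2.2 ± 0.657 CPM in isotype control tumors and 6.02 ± 2.28, 4.89 ± 1.49, 5.18 ± 0.993 and 6.13 ± 1.92 CPM in aPD1, aPD1 + aGMCSF, aPD1 + aIL2RB and aPD1 + aGMCSF + aIL2RB tumors (SD, n = 5, 6, 9, 11 and 11). It was the one member that rose against isotype control in aPD1 tumors (1.45 ± 0.26, adjusted p = 0.000877), aPD1 + aIL2RB tumors (1.23 ± 0.24, adjusted p = 0.00241) and aPD1 + aGMCSF + aIL2RB tumors (1.47 ± 0.25, adjusted p = 0.000187) without a difference past the threshold among the treated groups. In aPD1 + aGMCSF tumors the difference from isotype control was 1.15 ± 0.25 (adjusted p = 0.185). Serpinf1 rose by 0.45 ± 0.08 (adjusted p = 5.54e-05) and 0.35 ± 0.08 (adjusted p = 0.00139) relative to aPD1 in the groups given aIL2RB without and with aGMCSF. It was above isotype control by 0.37 ± 0.09 (adjusted p = 0.0124) and 0.27 ± 0.09 (adjusted p = 0.0432), the latter lost without any 1 of isotype control replicates 1 to 3 and 5, or aPD1 + aGMCSF + aIL2RB replicates 2, 3, 7 and 9 to 11 (adjusted p = 0.0572 to 0.12).

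Against isotype control, members were called in both groups given aIL2RB and in none for aPD1 + aGMCSF. In aPD1 + aGMCSF tumors 0 of 42 members passed with edgeR, 9 had an unadjusted p under 0.05, and DESeq2 called 2, Fn1 and Apod, at 0.57 (adjusted p = 0.00754) and 1.15 (adjusted p = 0.0183). With the replicate block Apod passed, at 1.31 (adjusted p = 0.0389). The background over all genes was 0%. In aPD1 + aIL2RB tumors 11 members were higher and 1, Thy1, was lower (background 3.2%, 1.7% higher and 1.51% lower). In aPD1 + aGMCSF + aIL2RB tumors 15 were higher and 0 lower (background 10.2%, 5.69% higher and 4.51% lower). The background moved with single tumors. In aPD1 + aIL2RB against isotype control 12 members and 542 of all genes were called, which became 10 members and 226 of all genes without isotype control replicate 4, 10 members and 283 of all genes without replicate 2, 12 members and 284 of all genes without replicate 5 and 15 members and 960 of all genes without aPD1 + aIL2RB replicate 9. Without isotype control replicate 3 or aPD1 + aIL2RB replicate 1 there were 12 members and 349 of all genes. With both antibodies 15 and 1726 became 12 members and 479 of all genes without isotype control replicate 4 and 12 members and 632 of all genes without replicate 2. The replicate block gave 16 members and 2235 of all genes in the former and 21 members and 3941 of all genes in the latter comparison. Apod, Dcn, Epha3, Fn1, Mmp2, Mrc2, Ogn and Pdgfrb kept their call in every fit without 1 tumor in both comparisons. Without overlap between the groups, 5 members were higher in aPD1 + aIL2RB than in isotype control tumors, Fn1, Dcn, Mrc2, Epha3 and Apod (background 0.295%). With both antibodies there were 8, those 5 with Lum, Ogn and Vcan (background 0.821%). With aPD1 in place of isotype control, 6 members were higher without overlap in aPD1 + aIL2RB tumors (Fn1, Dcn, Pcolce, Mrc2, Epha3 and Serpinf1, background 1.22%) and 12 in aPD1 + aGMCSF + aIL2RB tumors (background 1.13%).

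No member passed between the groups given aIL2RB with and without aGMCSF. Between aPD1 + aGMCSF + aIL2RB and aPD1 + aIL2RB tumors edgeR called 0 of 42 members, DESeq2 called 0, and 1 of the 16932 genes passed (0.00591%). An unadjusted p under 0.05 was found for 2 members, Postn at 0.41 ± 0.12 (adjusted p = 0.583) and Col12a1 at 0.52 ± 0.20 (adjusted p = 0.637) on the log2 scale. For Dcn, Fn1, Epha3 and Acta2 the differences were -0.04 ± 0.07, 0.03 ± 0.09, -0.13 ± 0.17 and 0.25 ± 0.23. Some members did differ between blocking of GM-CSF and of IL2RB. Relative to aPD1 + aGMCSF, 8 members were higher and 2 lower in aPD1 + aIL2RB tumors (background 1.52%, 0.626% higher and 0.898% lower), and 7 were higher and 0 lower in aPD1 + aGMCSF + aIL2RB tumors (background 2.13%, 0.98% higher and 1.15% lower). Dcn, Fn1, Mrc2, Epha3 and Pdgfra were higher in both.

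**Figure D4:**
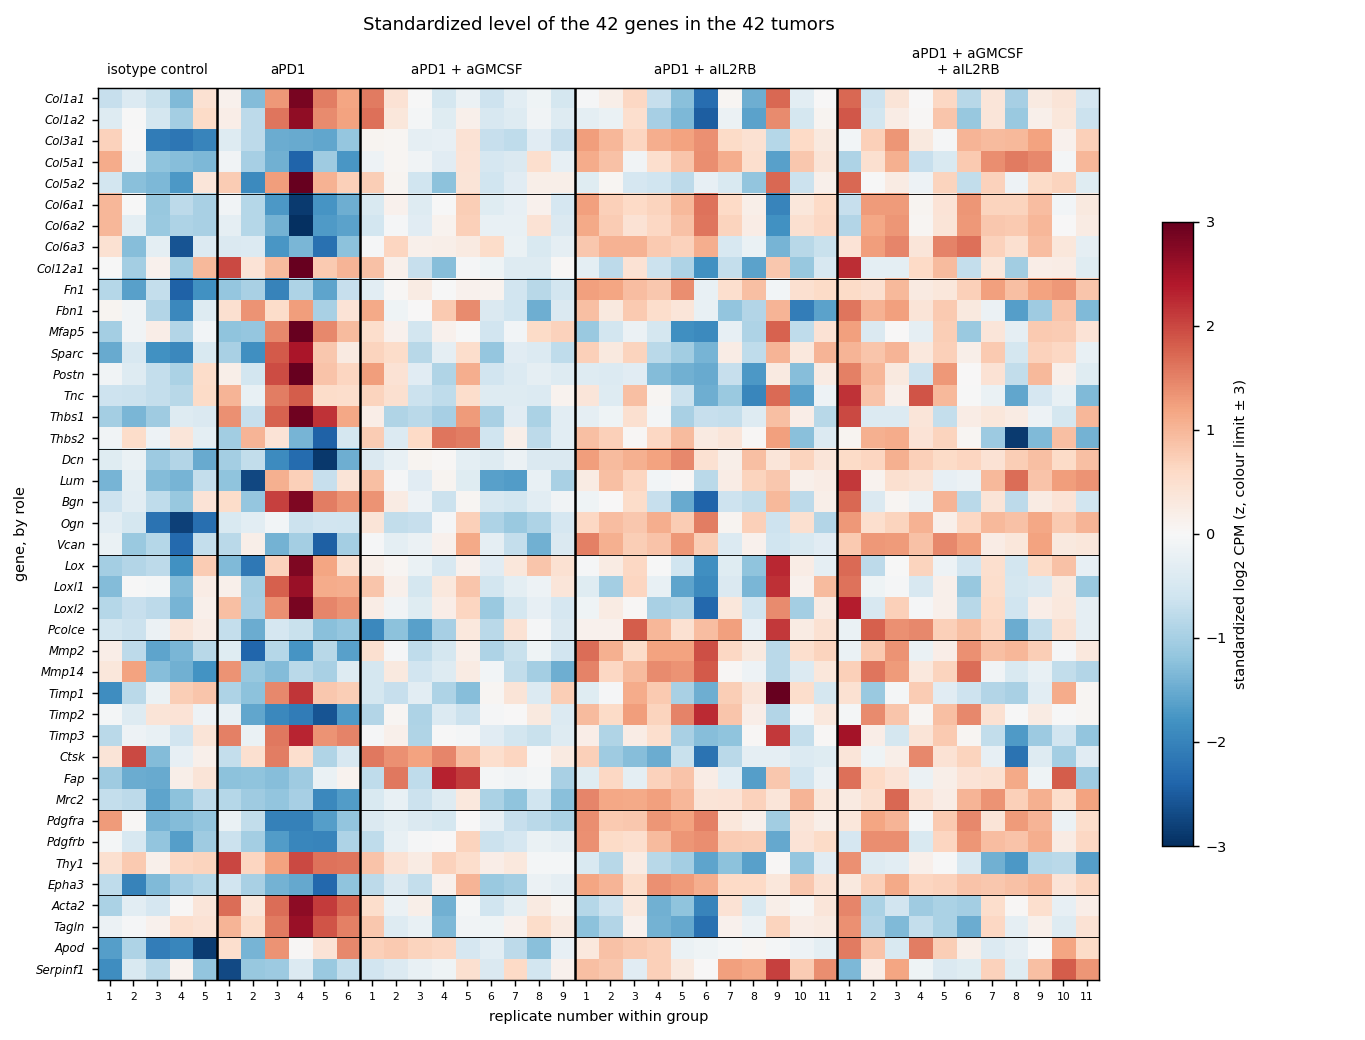
Level of the 42 genes (down, by role) in the 42 tumors (across, by group and replicate number), as log2 CPM standardized for each gene, with red above and blue below the mean of the gene. In aPD1 replicate 4, aPD1 + aIL2RB replicate 9 and aPD1 + aGMCSF + aIL2RB replicate 1, Col1a1, Lox, Loxl2 and Tnc are red while Col5a1, Col6a1 and Col6a2 are blue, and in aPD1 + aIL2RB replicate 6 these colors are exchanged.

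Within a group, single tumors were high for some members and low for others. In aPD1 replicate 4, 18 members were at the highest level of the 6 tumors, among them Col1a1, Col1a2, Col5a2, Col12a1, Postn, Thbs1, Bgn, Lox, Loxl1, Loxl2, Timp3, Acta2 and Tagln, and 4 at the lowest, Col5a1, Col6a1, Col6a2 and Ogn. In aPD1 + aIL2RB replicate 9, 20 members were highest and 12 lowest of the 11 tumors, with Col1a1 at 866, Col3a1 at 2004 and Col6a1 at 699 CPM. Replicate 6 of that group had Col1a1 at 217, Col3a1 at 4342 and Col6a1 at 2216 CPM, with 11 members highest and 16 lowest. In aPD1 + aGMCSF + aIL2RB replicate 1, 20 members were highest and 9 lowest. Macrophage and monocyte markers had the highest sum of their group in aPD1 replicate 4 (5891 CPM) and aPD1 + aGMCSF + aIL2RB replicate 1 (3914 CPM), whereas in aPD1 + aIL2RB the highest was in replicate 1 (3121 CPM). Their part in this division was not tested. Of all 42 tumors, aPD1 replicate 4 held the highest level of 14 members and aPD1 + aIL2RB replicate 6 that of 8.

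Condensed to a score per tumor, the mean of the standardized log2 CPM over all 42 members was -0.618 ± 0.301 in isotype control, -0.135 ± 0.289 in aPD1 + aGMCSF, -0.0963 ± 0.422 in aPD1, 0.113 ± 0.288 in aPD1 + aIL2RB and 0.331 ± 0.281 in aPD1 + aGMCSF + aIL2RB tumors (SD, n = 5, 9, 6, 11 and 11). From aPD1 + aGMCSF on, means of neighbors in this order differed by less than 1 SD, and the isotype control mean lay further below. The score averages over genes of opposite course. Scores of the gene groups placed the treatments in other orders. The contractile score was 1.61 ± 0.729 in aPD1 tumors, -0.0526 ± 0.388 in isotype control tumors and -0.511 ± 0.876 in aPD1 + aIL2RB tumors. For proteoglycans it was -0.993 ± 0.502 in isotype control, -0.496 ± 0.423 in aPD1 and 0.654 ± 0.259 in aPD1 + aGMCSF + aIL2RB tumors. For surface receptors it was -0.625 ± 0.461 in aPD1 and 0.332 ± 0.413 in aPD1 + aIL2RB tumors. By group means of CPM, 19 members were highest in aPD1 tumors, 10 in aPD1 + aIL2RB, 11 in aPD1 + aGMCSF + aIL2RB, 2 in aPD1 + aGMCSF and 0 in isotype control tumors. The scores are descriptions with no test.

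**Figure D5:**
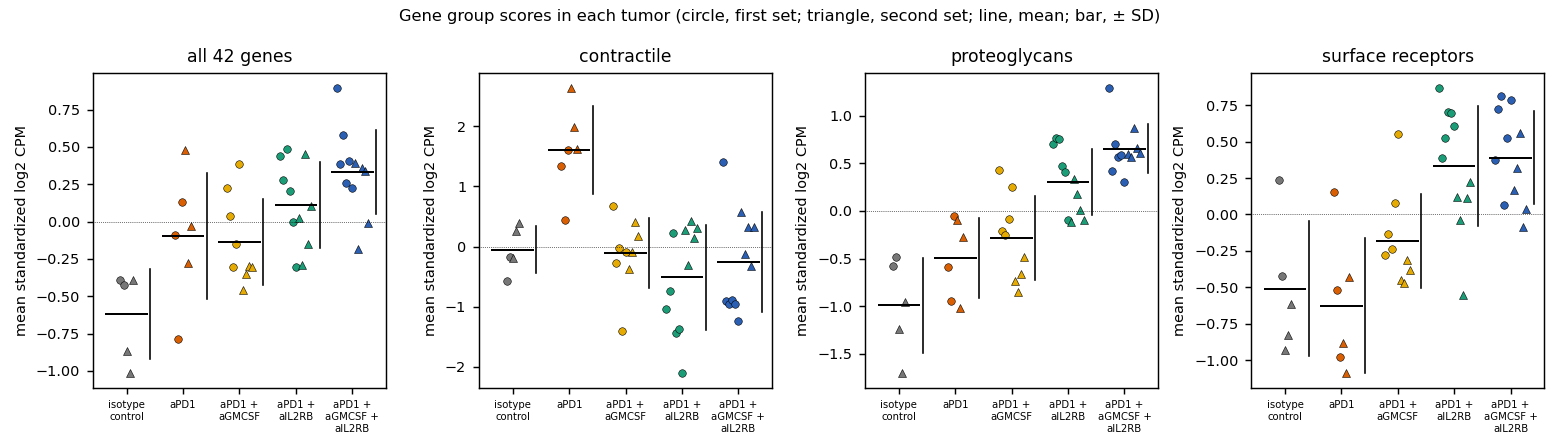
Mean standardized log2 CPM in each tumor over all 42 genes, the 2 contractile genes, the 5 proteoglycans and the 4 surface receptors, by treatment group (circle, first set; triangle, second set; line, mean; bar, ± SD). The contractile score is highest in the aPD1 group (1.61 ± 0.729), the proteoglycan score in the aPD1 + aGMCSF + aIL2RB group (0.654 ± 0.259).

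Other genes of the pathway were read from lists outside the 42 members. For the median log2 differences given here, the median over all genes tested was -0.0023 between aPD1 and isotype control and 0.0036 between aPD1 + aIL2RB and aPD1. For the counts, 6.17% of all genes were higher and 2.54% lower in the former comparison, and 13% higher and 14.5% lower in the latter. Of 32 other collagens and matrix proteins, 14 were higher and 9 lower in aPD1 + aIL2RB than in aPD1 tumors (median 0.01). Matn2, a matrilin, rose by 1.11 and Emilin1, an elastin-associated protein, by 0.68, while Col11a1 fell by 1.95 and Fmod, fibromodulin, fell by 1.73. With aPD1 against isotype control 5 were higher and 2 lower (median 0.23), the former led by Efemp1 (1.66) and Prelp (1.43) and the latter being Col16a1 (-0.35) and Col7a1 (-0.30). Of 17 enzymes of collagen biosynthesis, 8 were higher and 2 lower in aPD1 + aIL2RB than in aPD1 tumors (median 0.12). Bmp1, a procollagen protease, rose by 0.45 and Serpinh1, the collagen chaperone, by 0.40, and P4ha3, a prolyl hydroxylase, fell by 0.92 and Adamts2 fell by 0.74. With aPD1 against isotype control 1 rose (Loxl3, 0.33) and 1 fell (Plod2, -0.33), with a median of -0.055.

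Of 20 tested genes of the transforming growth factor beta pathway, 3 rose and 0 fell with aPD1 against isotype control (median 0.034). The background was 6.17% higher and 2.54% lower. The largest rises were those of the latent binding protein Ltbp2 (1.2) and the target gene Ccn2 (1.15). In aPD1 + aIL2RB relative to aPD1, 5 were higher and 4 lower (median 0.096, background 13% higher and 14.5% lower). Tgfb3, a ligand, rose by 1.21 and Ltbp3 by 0.72, while Ltbp2 fell by 1.56 and Ccn2 fell by 1.04. Of 16 tested matrix proteases, 3 rose and 1 fell with aPD1 against isotype control (median 0.20), among them Mmp19 (0.99), cathepsin S (Ctss, 0.77) and Mmp11 (-0.62). In aPD1 + aIL2RB relative to aPD1, 3 were higher and 5 lower (median -0.12). Mmp11 and Mmp9 rose by 1.12 and 0.97, while Mmp12, a protease of macrophages, fell by 1.58 and Ctss fell by 1.11. Of 16 markers of fibroblast subtypes, 0 rose and 6 fell in aPD1 + aIL2RB relative to aPD1 (median -0.22), led by Clec3b (-1.96) and Dpp4 (-1.61). With aPD1 against isotype control 5 of them rose and 1 fell (median 0.57), with Pi16 at 1.33, Cxcl12 at 1.00 and S100a4 at -0.31. Every gene named from these lists passed edgeR's adjusted threshold in the comparison given.

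The calls rested on the sets and on single tumors to different degrees. Between the second and first set, Tagln was higher by 0.67 and Acta2 by 0.46 on the log2 scale, and Ogn (-0.48), Ctsk (-0.45) and Vcan (-0.41) were lower. A difference between the sets in the effect of treatment was called for 0 members in aPD1 against isotype control (background 0.0709%). In aPD1 + aGMCSF + aIL2RB it was called for Dcn, Timp3 and Thy1 against aPD1 (background 9.18%), for Col3a1, Col5a1 and Ogn against isotype control (background 1.1%) and for Timp3 against aPD1 + aIL2RB (background 1.94%). Between aPD1 and isotype control, 14 members and 1475 of all genes were called. Without aPD1 replicate 4 these numbers were 4 and 667, without tumors over 100 CPM of muscle markers 5 and 1043, and without aPD1 replicate 2 they were 19 and 1984. Leaving out isotype control replicate 4 gave 6 members and 755 of all genes, and aPD1 replicate 6 12 members and 975 of all genes. Without isotype control replicate 1, 2 or 3, or aPD1 replicate 5, between 8 and 9 members were called. In the first set alone (3 and 2 tumors) 0 members and only 2 of all genes were called, so that count says nothing particular about the members. Acta2, Apod, Thbs1 and Timp2 were called in every fit of this comparison without 1 tumor. In aPD1 + aGMCSF against aPD1 this held for 9 of the 20 calls, and 9 members and 1199 of all genes were called without aPD1 replicate 4. In aPD1 + aIL2RB against aPD1 it held for 27 of 31 calls, and in aPD1 + aGMCSF + aIL2RB against aPD1 for 21 of 27. In aPD1 + aIL2RB against aPD1 + aGMCSF, 10 members and 258 of all genes became 8 members and 162 of all genes without aPD1 + aGMCSF replicate 1, 7 members and 170 of all genes without aPD1 + aIL2RB replicate 6 and 13 members and 469 of all genes without replicate 9. The difference of Col5a1 between aPD1 + aGMCSF + aIL2RB and isotype control was -0.15 ± 0.16 (adjusted p = 0.686) in the first set and 0.81 ± 0.16 (adjusted p = 0.00183) in the second.

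Either set held fewer tumors, and calls were lost in both. In the first, none of the 14 calls in aPD1 against isotype control was kept (adjusted p = 0.201 to 0.742). Relative to aPD1, 19 of 20 were lost in aPD1 + aGMCSF, all but that of Fn1 (adjusted p = 0.0556 to 0.866), 9 of 31 in aPD1 + aIL2RB, namely Bgn, Col1a1, Col1a2, Col5a2, Loxl1, Loxl2, Mfap5, Thbs1 and Timp3 (adjusted p = 0.0686 to 0.487), and 11 of 27 in aPD1 + aGMCSF + aIL2RB, namely Acta2, Bgn, Col12a1, Col5a1, Fap, Loxl1, Lum, Serpinf1, Tagln, Thbs1 and Timp3 (adjusted p = 0.0547 to 0.784). Against isotype control the calls lost there were 6 of 12 in aPD1 + aIL2RB, namely Apod, Col3a1, Mmp2, Pdgfrb, Serpinf1 and Thy1 (adjusted p = 0.0834 to 0.24), and 10 of 15 in aPD1 + aGMCSF + aIL2RB, namely Apod, Col3a1, Col6a3, Lum, Mmp2, Ogn, Pdgfra, Pdgfrb, Serpinf1 and Sparc (adjusted p = 0.0619 to 0.926). Against aPD1 + aGMCSF they were 0 of 10 in aPD1 + aIL2RB and 6 of 7 in aPD1 + aGMCSF + aIL2RB, namely Epha3, Fn1, Lum, Mrc2, Ogn and Pdgfra (adjusted p = 0.0792 to 0.771). Within the second set the loss in aPD1 against isotype control was that of Col12a1 (adjusted p = 0.0535). Relative to aPD1 the losses were Fn1, Mmp2 and Mrc2 (adjusted p = 0.112 to 0.25) in aPD1 + aGMCSF, Col6a3, Loxl1 and Ogn (adjusted p = 0.102 to 0.199) in aPD1 + aIL2RB and Fap and Pcolce (adjusted p = 0.308 to 0.349) in aPD1 + aGMCSF + aIL2RB. In aPD1 + aIL2RB tumors Vcan (adjusted p = 0.27) was lost against isotype control and 8 of 10 against aPD1 + aGMCSF, namely Ctsk, Dcn, Fn1, Mmp2, Pcolce, Pdgfra, Thy1 and Timp2 (adjusted p = 0.128 to 0.964). With both antibodies no call against isotype control or aPD1 + aGMCSF was lost within the second set.

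Some calls were lost without tumors over 100 CPM of muscle markers. This left 5 isotype control, 3 aPD1, 5 aPD1 + aGMCSF, 10 aPD1 + aIL2RB and 9 aPD1 + aGMCSF + aIL2RB tumors. Calls over all genes went from 1475 to 1043 in aPD1 against isotype control and from 2289 to 673 in aPD1 + aGMCSF against aPD1. In aPD1 + aIL2RB against aPD1 + aGMCSF they went from 258 to 154. How far the smaller groups account for the losses was not tested. In aPD1 against isotype control they were those of Bgn, Col1a1, Col5a2, Dcn, Postn, Sparc, Tagln, Timp2 and Timp3 (adjusted p = 0.0584 to 0.282), 9 of 14. Relative to aPD1 they were 14 of 20 in aPD1 + aGMCSF, namely Bgn, Col5a1, Col6a1, Col6a2, Col6a3, Epha3, Fn1, Loxl2, Mmp2, Mrc2, Pdgfrb, Postn, Timp2 and Timp3 (adjusted p = 0.0887 to 0.792). In aPD1 + aIL2RB they were 8 of 31, namely Col1a1, Col1a2, Col5a2, Col6a3, Loxl1, Mfap5, Timp3 and Vcan (adjusted p = 0.0556 to 0.202), and in aPD1 + aGMCSF + aIL2RB 4 of 27, namely Bgn, Fap, Loxl1 and Pcolce (adjusted p = 0.0563 to 0.141). Relative to aPD1 + aGMCSF they were Ctsk, Fn1, Pcolce, Pdgfra and Timp2 (adjusted p = 0.0562 to 0.238) in aPD1 + aIL2RB and Lum and Pdgfra (adjusted p = 0.0688 to 0.0867) in aPD1 + aGMCSF + aIL2RB. Against isotype control it was that of Pdgfra (adjusted p = 0.0625) in aPD1 + aGMCSF + aIL2RB, and none of 12 calls was lost in aPD1 + aIL2RB tumors. With the looser filter the calls lost were Col1a1, Postn and Timp3 (adjusted p = 0.0503 to 0.059) in aPD1 against isotype control, and relative to aPD1 Col5a1, Mmp2, Mrc2 and Postn (adjusted p = 0.0541 to 0.0677) in aPD1 + aGMCSF, Loxl1 (adjusted p = 0.0517) in aPD1 + aIL2RB and Fap, Loxl1 and Lum (adjusted p = 0.0555 to 0.067) in aPD1 + aGMCSF + aIL2RB. It also lost Timp2 (adjusted p = 0.0565) in aPD1 + aIL2RB against aPD1 + aGMCSF, and Pdgfra and Serpinf1 (adjusted p = 0.0618 to 0.0781) in aPD1 + aGMCSF + aIL2RB against isotype control. Lum was lost against aPD1 + aGMCSF as given above.

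A fit of only the groups compared lost Col12a1, Col1a1, Col5a2, Dcn, Postn and Sparc (adjusted p = 0.0538 to 0.156) in aPD1 against isotype control. Relative to aPD1 it lost Postn (adjusted p = 0.0965) in aPD1 + aGMCSF, Col1a1, Col5a2, Loxl1 and Mfap5 (adjusted p = 0.0549 to 0.111) in aPD1 + aIL2RB and Bgn, Loxl1 and Lum (adjusted p = 0.0527 to 0.112) in aPD1 + aGMCSF + aIL2RB, and against isotype control Col3a1 (adjusted p = 0.0546) and Pdgfra and Serpinf1 (adjusted p = 0.0776 to 0.0926) in the last 2 groups. Scaling by library size lost Col1a1, Postn and Sparc (adjusted p = 0.051 to 0.112) in aPD1 against isotype control, Postn (adjusted p = 0.0652) in aPD1 + aGMCSF, Loxl1 (adjusted p = 0.0543) in aPD1 + aIL2RB and Loxl1 (adjusted p = 0.0586) in aPD1 + aGMCSF + aIL2RB against aPD1. It also lost Pdgfra and Serpinf1 (adjusted p = 0.0627 to 0.0834) in aPD1 + aGMCSF + aIL2RB against isotype control and Timp2 (adjusted p = 0.0775) in aPD1 + aIL2RB against aPD1 + aGMCSF. Size factors of DESeq2 lost Mmp2 and Mrc2 (adjusted p = 0.0537 to 0.0581) in aPD1 + aGMCSF and Lum (adjusted p = 0.0543) in aPD1 + aGMCSF + aIL2RB, and the set as a term lost Loxl1 (adjusted p = 0.0533) in the latter, each against aPD1. The replicate block lost Col5a1 and Postn (adjusted p = 0.0673 to 0.0764) in aPD1 + aGMCSF and Lum (adjusted p = 0.127) in aPD1 + aGMCSF + aIL2RB against aPD1, and Serpinf1 (adjusted p = 0.0777) in the latter against isotype control. DESeq2 lost none of the calls of edgeR.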

How the data were processed

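Bulk poly(A) RNA-seq of 42 tumors in 5 groups was analyzed. The authors deposited expected counts per gene, not normalized, which gbrs 0.1.6 had estimated from reads aligned with Bowtie 1.2.3 to transcriptomes of the Collaborative Cross founder strains, made with g2gtools 0.2.9 (GRCm38/mm10, GENCODE M23). Reads that match several genes were shared among them by that estimate, which can shift values between overlapping genes. Of the values, 15.2% were not whole, and all were rounded. The table held 26811 gene identifiers, of which 26629 were paired with a symbol.

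Counts were tested with edgeR 4.0.16 (R 4.3.3), using TMM scaling, filterByExpr (minimum count 10, minimum total 15), and glmQLFit and glmQLFTest with treatment as the only factor in 1 model of all tumors. Of the genes, 16932 passed the filter, all 42 members among them, and p-values were adjusted over all of them (Benjamini-Hochberg, threshold 0.05). Log2 fold changes are given with their SE. CPM were computed from these counts with the TMM factors, and scores from CPM on a log2 scale (prior count 2). The background is the percent of all tested genes called by the same rule. Python 3.11.15, numpy 2.4.6, pandas 2.3.3 and matplotlib 3.10.9 were used for levels and figures. Lengths and positions were those of GENCODE M21 on the same build.

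Values per tumor are given for the members called in the most comparisons and for Col1a1, Col1a2, Col3a1, Fn1, Pdgfra and Acta2, which makes 14 genes, and for Tagln, added beside Acta2 after its values were seen. In each comparison the 3 largest called rises and falls are named with their statistics. From other lists, the 2 genes called with the largest change in each direction are named. The members and lists were chosen with earlier results of these data known, and so was the division of tumors into sets. Alternatives were DESeq2 1.42.0, a looser filter on low counts (a total of at least 5), scaling by DESeq2 size factors or library size, only the groups compared, a replicate block, the set as a term, either set alone, tumors rich in muscle markers left out, and each tumor left out in turn. On simulated counts of 16735 genes shaped like aPD1 against isotype control, 63 of 100 genes changed by 1.5-fold and 97 of 100 changed by 3-fold were called, with 8 unchanged genes called. Tumors were sequenced to between 7155464 and 24101643 counts, which limits the precision of genes at a few CPM such as Epha3, Ogn, Apod and Fap.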

Additional observations from a re-analysis of the deposited data

Results flagged for a closer look

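In aPD1 + aGMCSF replicate 1, both type I collagen chains stood apart from the other 8 tumors of the group. Col1a1 was at 817 CPM and the next tumor at 553 CPM, a gap of 0.521 of the range of the group on the log2 scale. Col1a2 was at 613 CPM and the next tumor at 378 CPM, a gap of 0.612 of the range. Both exceed the critical value of Dixon's test at the 95% level for 9 tumors. In all, 45 sets were examined in this way, each being 1 of 14 genes or the score of all members in 1 group. They came from isotype control, aPD1 and aPD1 + aGMCSF tumors, and the groups given aIL2RB were not examined. Chance alone gives a gap of this kind in about 1 in 20 sets. Without this tumor the fall of Col1a1 in aPD1 + aGMCSF relative to aPD1 passed the threshold.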

How the results depend on the processing

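For 57 chosen pairs of a member and a comparison, 608 recomputed results kept their direction and their side of the threshold. Of the rest, 52 no longer passed, 19 newly passed and 5 changed sign. Among fits without 1 tumor, only those with the lowest and highest fold change of each pair entered this count. Over all 136 calls of members, 43 were lost in some fit without 1 tumor. The cause was not tested for any change. Counts of members called that moved by more than 1.5 times are given here, each with the number of all genes called in the same fit in parentheses. Within the first set 0 (2) members were called in aPD1 against isotype control, 1 (27) in aPD1 + aGMCSF against aPD1 and 16 (934) in aPD1 + aGMCSF + aIL2RB against aPD1. There 7 (409) were called in aPD1 + aIL2RB and 5 (338) in aPD1 + aGMCSF + aIL2RB against isotype control, and 2 (46) in aPD1 + aGMCSF + aIL2RB against aPD1 + aGMCSF. Within the second set 3 (62) were called in aPD1 + aIL2RB and 12 (1285) in aPD1 + aGMCSF + aIL2RB against aPD1 + aGMCSF, and 1 (342) between the groups given aIL2RB. Either set holds fewer tumors. Without tumors over 100 CPM of skeletal muscle markers, an alternative chosen after seeing the data, 5 (1043) were called in aPD1 against isotype control, 6 (673) in aPD1 + aGMCSF against aPD1 and 6 (154) in aPD1 + aIL2RB against aPD1 + aGMCSF. DESeq2 called 2 (5) in aPD1 + aGMCSF against isotype control. In aPD1 + aGMCSF + aIL2RB against aPD1 + aGMCSF, where 7 (360) were called with all tumors, DESeq2 called 11 (578), a fit of these groups alone 12 (564) and the set as a term 12 (757). With each tumor left out in turn, aPD1 against isotype control gave 4 (667, without aPD1 replicate 4) to 19 (1984, without aPD1 replicate 2) members. In aPD1 + aGMCSF against aPD1 the same tumors gave 9 (1199) to 25 (2967). In aPD1 + aGMCSF against isotype control there were 0 to 1 (2, without isotype control replicate 3), and in aPD1 + aGMCSF + aIL2RB against aPD1 + aGMCSF 6 (231, without aPD1 + aGMCSF replicate 2) to 13 (728, without aPD1 + aGMCSF + aIL2RB replicate 1).

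The score difference of aPD1 + aGMCSF and aPD1 was -0.409 within the second set. Between aPD1 and isotype control, Col3a1 changed sign within the second set (0.35) and ran from -0.27 to 0.14 with single tumors left out, and Fn1 was at -0.060 within the first set. Within that set Col1a1 changed sign relative to aPD1 in aPD1 + aGMCSF (0.055) and aPD1 + aGMCSF + aIL2RB (0.055). None of these was called in the fit of all tumors.

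The replicate numbers were not taken to pair the tumors. Of 67 pairs of the same number in different groups, 16 had a correlation of residuals over 0.1 (median 0.0349). For pairs of other numbers this held for 104 of 623 (median -0.00394), and for pairs within the same set for 107 of 345 (median 0.0532). These values do not decide whether numbers pair tumors beyond the division into sets. With the replicate number as a block, the members called, with the number of all genes in parentheses, were 17 (1760) in aPD1 against isotype control, 21 (2073) in aPD1 + aGMCSF, 33 (4760) in aPD1 + aIL2RB and 29 (5306) in aPD1 + aGMCSF + aIL2RB against aPD1. Without the block these were 14 (1475), 20 (2289), 31 (4647) and 27 (4634). The block gave 1 (4) in aPD1 + aGMCSF against isotype control and 15 (914) in aPD1 + aGMCSF + aIL2RB against aPD1 + aGMCSF.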

Other observations

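Markers of other stromal cells were also read. Of 10 endothelial markers, 3 rose and 0 fell in aPD1 against isotype control, and 3 rose and 1 fell in aPD1 + aGMCSF + aIL2RB against aPD1. Over all genes tested, 6.17% rose and 2.54% fell in the former comparison, and 13.1% rose and 14.3% fell in the latter. Of 6 keratinocyte markers, 1 rose in aPD1 against isotype control and 4 fell in aPD1 + aGMCSF + aIL2RB against aPD1. Their summed level was 37.1 and 19.7 CPM in aPD1 replicates 2 and 3 and 3.72 to 5.46 CPM in the other 4 aPD1 tumors. None of the 6 adipocyte markers passed with edgeR in these comparisons, with medians of 0.49 and -1.27. Of 10 mural cell markers, 4 rose and 3 fell in aPD1 + aIL2RB against aPD1 (background 13% higher and 14.5% lower). Among the risen was Kcnj8, a potassium channel of pericytes, at 1.41 on the log2 scale.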
